A study of Rattus norvegicus with 24 samples.

Results

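The NK lectin receptors outside the Ly49 family were followed, together with *Ncr1*, in the rat skin explant assay, in which lymphocytes are added to cultured skin and those of a foreign strain can attack it (GVHR). The set holds 6 of the 7249 genes on the array, namely *Klrb1a*, *Klrc1*, *Klrd1*, *Klrk1*, *Cd69* and *Ncr1*. They were chosen by symbol, as every non-control probe that carries one of these names in the scanner files or in the study's list of probes for the natural killer gene complex (NKC), and each turned out to have 1 probe, printed in 1 to 3 spots per array. Paw skin of 12 male BN rats aged 15 weeks was cut into explants, and 2 explants of each rat were co-cultured for 3 days with lymphocytes from a 7-day mixed lymphocyte reaction. The syngeneic sample of a rat received BN lymphocytes that had been cultured with irradiated BN splenocytes. The allogeneic sample received PVG lymphocytes that had been cultured with irradiated BN splenocytes. Both samples are therefore BN skin cultured with added lymphocytes, and the explants were washed before they were frozen for RNA. The study rarely saw infiltrating lymphocytes in histology. As a measure of T cells at the RNA level, it tested *Cd3z* by quantitative PCR in part of these sample pairs. This gene was higher there in the allogeneic explants than in the syngeneic ones. Explants kept in medium without lymphocytes were not analysed here. The question was which transcripts differ between the allogeneic and the syngeneic explants. The strain of the added lymphocytes differs along with this, so its effect cannot be told apart from that of the allogeneic reaction.

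The RNA of both explants of a rat was hybridized to a custom two-color Agilent array and again to a further array with the dyes exchanged, so that 24 arrays on 3 slides give 12 replicates. A sample's level is a normalized log2 intensity, the mean of both arrays, and a log2 ratio is allogeneic over syngeneic, the mean of both arrays of a rat. These signs follow the dye labels, and they oppose the signs in the study's tables: a value below 0 stands for a lower signal from the RNA that the labels call allogeneic. The direction is therefore not settled, and if the study's tables have the right sign, every gene given here as lower was higher and the reverse. Words such as lower, higher and fell refer to the dye labels throughout. The study's quantitative PCR on part of these sample pairs, which does not rest on the dye labels, gave most tested genes its microarray direction. *Aif1* was higher there in the allogeneic explants, whereas its ratio here was -1.27. A gene was called when its p-value from limma, adjusted over all genes by the method of Benjamini and Hochberg, was under 0.05. This was the case for 1174 of 7249 genes (16.2%), with 548 genes (7.56%) called lower and 626 (8.64%) called higher in the samples labeled allogeneic. Rat 8 stood apart, as its log2 ratios over all genes had a median correlation of 0.154 with those of the other rats, against 0.302 to 0.654 for the others. Between both arrays of a rat, however, the correlation was highest in rat 8, at 0.946. In the other rats it ran from 0.136 in rat 10 to 0.774 in rat 9. Array 1 of rat 10 was far brighter than all others, with a median spot intensity of 6668 in Cy3, against 135 to 216. Results are therefore also given without these. The markers of skin were present, as *Perp*, *Cdh1* and *Tp63*, which mark keratinocytes, were well above background on all 24 arrays. In such mixed explants, fewer cells of a type and less RNA per cell cannot be told apart.

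Natural killer (NK) cells weigh signals of activating and inhibitory receptors on their surface. Many of these receptors are C-type lectin-like proteins encoded side by side in the NKC. Activating receptors pass their signal to kinases through small adaptor proteins, while inhibitory receptors carry motifs that recruit phosphatases. *Klrb1a* encodes NKR-P1A, an activating receptor found on rat NK cells. *Klrk1* encodes NKG2D, an activating receptor for stress-induced ligands related to MHC class I. *Klrd1* encodes CD94 and *Klrc1* encodes NKG2A, which form an inhibitory heterodimer that sees non-classical class I molecules. *Cd69* encodes an activation antigen that appears early on stimulated lymphocytes of several kinds and holds the sphingosine phosphate receptor S1pr1 inside the cell. *Ncr1* encodes NKp46, an immunoglobulin-like activating receptor of NK cells, whose gene lies outside the NKC. Some T cells also use several of these receptors.

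In the genome build rn3, which the array design used, 5 of the probes lie on chromosome 4 and that of *Ncr1* lies on chromosome 1. The *Klrb1a* probe is shown because a near relative is measured on the same array, so that shared sequence bears on the reading of its signal. It aligns to chr4:165882739-165882798 on the minus strand. The probe of *Klrb1b*, which encodes an inhibitory receptor of the same family, aligns to chr4:165944432-165944491 on the same strand. The capitals mark the longest run of bases that both probes share, and lines give the probes 5′ to 3′.
*Klrb1a*: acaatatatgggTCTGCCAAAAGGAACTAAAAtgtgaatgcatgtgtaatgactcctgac
*Klrb1b*: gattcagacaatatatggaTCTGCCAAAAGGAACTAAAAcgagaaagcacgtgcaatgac
The run is 20 bases long. Laid side by side without gaps, the probes overlap by 53 bases, of which 47 are identical. The 6 differences are G12A, T33C, T35A, T39A, T43C and T47C, with the *Klrb1a* base first, the position counted from 1 at the 5′ end of the *Klrb1a* probe, and the *Klrb1b* base last. A cross-hybridization of either transcript to the other probe was not tested. In the third reading frame, the *Klrb1a* probe has no stop before position 57.

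The *Cd69* probe is shown because this gene had the largest change of the set. It aligns to chr4:166773590-166773649 on the minus strand, and the second reading frame has no stop.
*Cd69*: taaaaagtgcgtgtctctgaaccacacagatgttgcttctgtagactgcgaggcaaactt
The first 30 bases of the *Klrk1* probe, at chr4:167159725-167159784 on the minus strand, are shown as the counterpart, since this gene had detected signal on every array and was not called. None of its 3 reading frames is open along the probe.
*Klrk1*: ctaaaagtttaaatagcccctttcccccca
The *Cd69* and *Klrk1* probes share no run of more than 12 bases with a probe of another gene. The *Klrc1* probe is a special case, since only 26 of its 60 bases have coordinates in the scanner files, at chr4:167225795-167225820. In the rat RefSeq annotation of GRCr8, the genes lie at 163576672-163590201 (*Klrb1a*), 164411485-164419403 (*Cd69*), 164730833-164742539 (*Klrd1*), 164767377-164778453 (*Klrk1*) and 164828163-164838446 (*Klrc1*) of chromosome 4 and at 78657409-78665255 of chromosome 1 (*Ncr1*).

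Of the 6 genes, *Cd69* and *Klrb1a* were called, both lower in the samples labeled allogeneic. *Klrc1*, *Klrd1*, *Klrk1* and *Ncr1* were not called. The count of 2 of 6 stands beside 16.2% of all genes called in either direction, 7.56% called lower and 8.64% called higher, the share to read if the sign is turned. No member had the same sign in all 12 rats. Of all 7249 genes, 234 (3.23%) were lower and 193 (2.66%) higher in all of them, so this does not set the 6 genes apart. The median log2 ratio of the 6 genes was -0.048, beside 0.012 over all genes. The changes were small in size, at 1.22-fold for *Cd69* and 1.08-fold for *Klrb1a*. These folds hold on the scale after a background correction that adds an offset of 50 intensity units, which compresses the ratios of dim probes. The plot of ratios by rat shows the spread behind each mean.

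**Figure D1:**
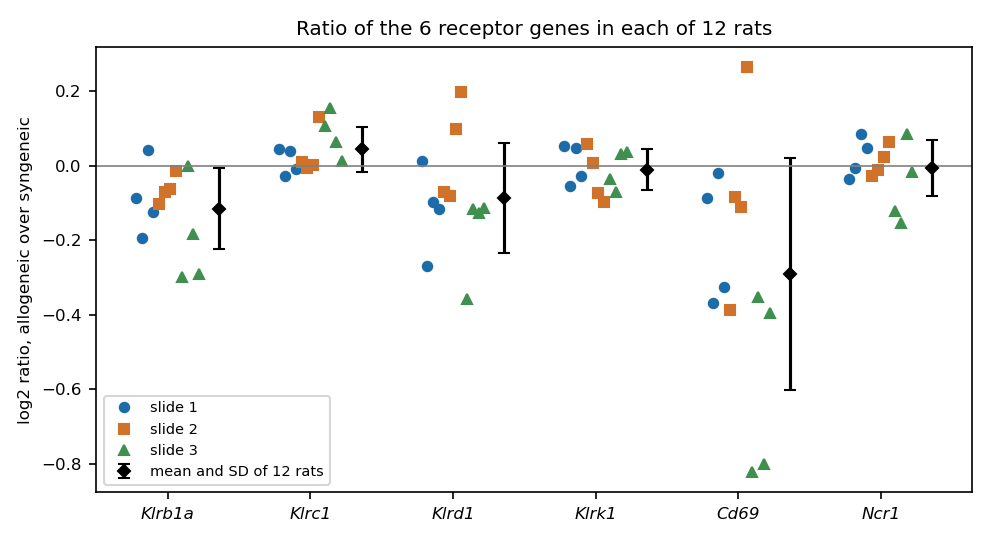
Log2 ratio, allogeneic over syngeneic, of each receptor gene in each of 12 rats, with the slide given by color and shape and with the mean and SD of 12 rats as a black diamond and bar. For *Cd69*, 11 rats lie below 0 and rat 8 alone lies above it, while the ratios of *Klrk1* and *Ncr1* scatter around 0.

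*Cd69*, the early activation antigen, was well above background in both channels of all 24 arrays. Its level in the syngeneic samples had a lowest value of 6.63, a median of 7.26 and a highest value of 7.77. In the allogeneic samples the lowest value was 6.82, the median 6.94 and the highest 7.16. The ranges overlapped, and the allogeneic samples lay closer together, with an SD of 0.10 against 0.33 for the syngeneic samples (n = 12 each). The log2 ratio was -0.29 ± 0.31 (SD, n = 12 rats), with a 95% confidence interval from -0.47 to -0.11 and an adjusted p = 0.0346. It was negative in 11 of 12 rats, between -0.82 in rat 9 and -0.018 in rat 3, and 0.26 in rat 8. Without rat 8 it was -0.34 (adjusted p = 0.00591), and without rat 8 and array 1 of rat 10 it was -0.36 (adjusted p = 0.00521).

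The ratio of *Cd69* was negative on each slide and in each dye orientation, and whether these differ was not tested. On slide 3 the mean was -0.59 ± 0.25 (SD, n = 4 rats), and all 4 rats lay at -0.35 or lower. On slide 1 it was -0.20 ± 0.17 and on slide 2, which holds rat 8, it was -0.079 ± 0.27 (n = 4 rats each). With the slide as a block, the adjusted p was 0.0116. With the allogeneic sample in Cy3, the arrays gave -0.40 (adjusted p = 0.00470), and those with it in Cy5 gave -0.18, which was not significant (adjusted p = 0.120). With the scanner software's processed signals in place of the offset-corrected ones the value was -0.59 and just missed the threshold (adjusted p = 0.0598). The call was also lost with any 1 of rats 2, 4, 5, 9, 10, 11 or 12 left out, at adjusted p-values up to 0.0673, while the ratio stayed between -0.34 and -0.24 over all 12 omissions.

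*Klrb1a*, the activating receptor NKR-P1A, was well above background in 23 of 24 arrays in the syngeneic channel and in 21 in the allogeneic channel. Its syngeneic levels had a lowest value of 6.74, a median of 6.95 and a highest value of 8.88. The allogeneic levels had a lowest value of 6.67, a median of 6.81 and a highest value of 8.88. Both highest values belong to rat 10 with its bright array, and the next highest were 7.15 and 6.95. The ranges overlapped. The log2 ratio was -0.12 ± 0.11 (SD, n = 12 rats), with an interval from -0.18 to -0.048 and an adjusted p = 0.0234. It was negative in 10 of 12 rats and lowest in rat 9 at -0.30, while rat 3 was at 0.042 and rat 10 at 0.00043.

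All 3 slides had a negative mean for *Klrb1a*, at -0.091 ± 0.099, -0.062 ± 0.037 and -0.19 ± 0.14 (SD, n = 4 rats each). Both dye orientations were negative, at -0.14 with the allogeneic sample in Cy3 (adjusted p = 0.00734) and -0.095 with it in Cy5 (adjusted p = 0.0993). The processed signals, which carry no offset, gave -0.36 (adjusted p = 0.0213). Without rat 8 and array 1 of rat 10 it was -0.14 (adjusted p = 0.00457). The call was lost without rat 2 (adjusted p = 0.0514) and without rat 11.

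The neighbor *Klrb1b*, whose probe shares the capital run above, was at 0.035 ± 0.14 (SD, n = 12 rats; adjusted p = 0.618). *Klrb1a* was 0.15 below it on the log2 scale, with an interval of the difference from -0.24 to -0.057. In 9 of 12 rats *Klrb1a* was the lower of them. An exact two-sided permutation test that flips the sign of the 12 differences gave p = 0.00537, or 0.0161 after adjustment over 3 comparisons of a member with a near relative. These 3 comparisons were chosen after the values had been seen, and the others, of *Klrc1* with *Klrc2* and *Klrc3*, are not given because the *Klrc1* probe is dim.

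*Klrk1*, the activating receptor NKG2D, was well above background in both channels of all 24 arrays. Its syngeneic levels ran from 8.33 over a median of 9.60 to 10.37 and its allogeneic levels from 8.26 over 9.61 to 10.27. Rat 10 was the lowest and rat 8 the highest in both groups, and the groups covered nearly the same range. The log2 ratio was -0.010 ± 0.056 (SD, n = 12 rats), negative in 6 rats and positive in 6. The confidence interval ran from -0.049 to 0.029 (adjusted p = 0.765). Its sign differed between settings, at 0.0073 after median centring and 0.0038 in the arrays with the allogeneic sample in Cy5.

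*Ncr1*, the activating receptor NKp46, was well above background in 16 arrays in the syngeneic channel and 20 in the allogeneic channel, with a single spot per array. Its syngeneic levels ran from 6.59 over a median of 6.68 to 9.24, and its allogeneic levels from 6.58 over 6.74 to 9.09. The highest value was that of rat 10 in both groups, and the other 11 rats reached 6.87 and 6.77, and the ranges overlapped. The log2 ratio was -0.0054 ± 0.075 (SD, n = 12 rats), negative in 7 rats and positive in 5, with an interval from -0.054 to 0.043 (adjusted p = 0.903). The dye orientations gave opposite signs, at 0.060 with the allogeneic sample in Cy5 and -0.071 with it in Cy3, neither of which was significant.

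The genes of the CD94/NKG2A heterodimer had mean ratios of opposite sign, and neither was called. *Klrd1*, which encodes CD94, was well above background in 16 arrays in the syngeneic channel and 15 in the allogeneic channel. Its syngeneic levels ran from 6.35 over a median of 6.68 to 7.09 and its allogeneic levels from 6.41 over 6.61 to 6.92, and the ranges overlapped. The log2 ratio was -0.086 ± 0.15 (SD, n = 12 rats), with an interval from -0.17 to 0.0021 (adjusted p = 0.186). It was negative in 9 of 12 rats, lowest in rat 9 at -0.36 and highest in rat 8 at 0.20. Without rat 8 *Klrd1* was called at -0.11 (adjusted p = 0.0348), and with median centring in place of loess it was called at -0.13 (adjusted p = 0.0419). The slide means were -0.12, 0.036 and -0.18 (n = 4 rats each).

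*Klrc1*, which encodes NKG2A, was detected on the fewest arrays of the 6 genes, with 5 arrays well above background in the syngeneic channel, 8 in the allogeneic channel and 10 in either. Its syngeneic levels ran from 6.25 over a median of 6.48 to 6.77 and its allogeneic levels from 6.36 over 6.50 to 6.92. The ranges overlapped, with the allogeneic one shifted upwards, and rat 10 had the highest value in both. The log2 ratio was 0.044 ± 0.059 (SD, n = 12 rats), with an interval from 0.0029 to 0.085 and an adjusted p = 0.143, and it was positive in 9 of 12 rats. In rat 9 it rests on 1 array, since all spots of the other were marked as outliers. The processed signals gave 0.26 (adjusted p = 0.0246), which was the sole alternative that called this gene.

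**Figure D2:**
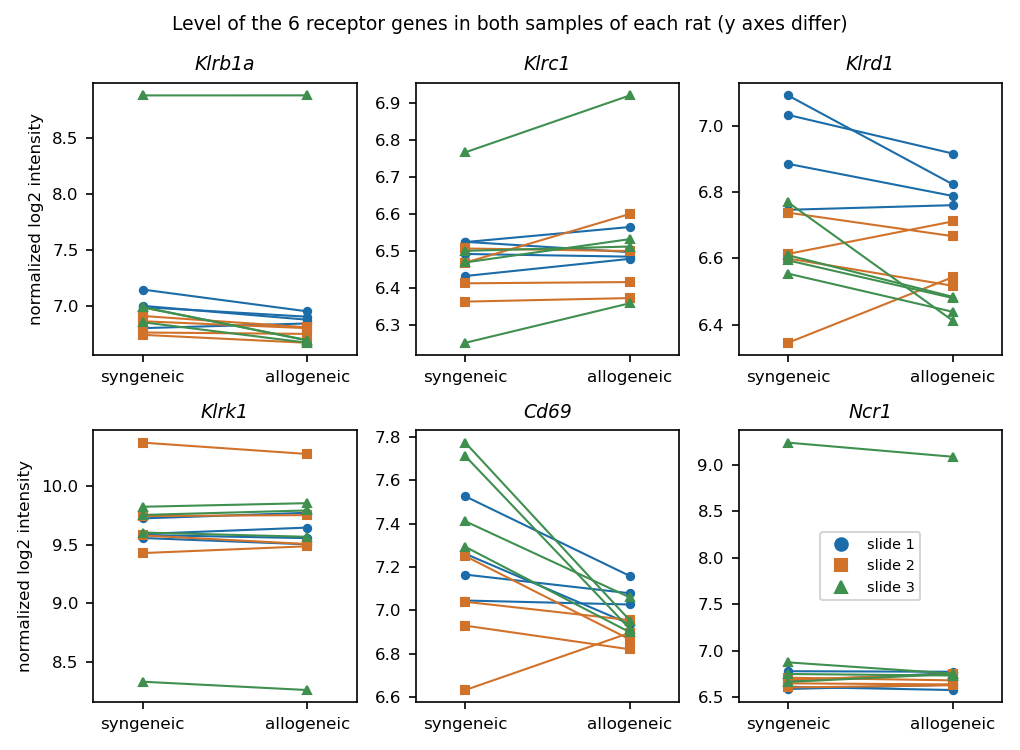
Normalized log2 intensity of each receptor gene in the syngeneic and the allogeneic sample of each of 12 rats, joined by a line, with the slide given by color and shape (the y axis differs between genes). The *Cd69* levels of the syngeneic samples spread from 6.63 to 7.77 and those of the allogeneic samples from 6.82 to 7.16. The single high line of *Klrb1a* and *Ncr1* is rat 10.

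The members were also compared with each other within rats, by the exact two-sided sign-flip test with adjustment over all 15 pairs. The pairs with *Klrc1* are not given, since its probe was not well above background on most arrays. Of the 10 pairs left, 6 differed, and 8 differed without rat 8. *Cd69* was lower than each of the 4 other genes, such as by 0.17 against *Klrb1a* (interval 0.020 to 0.33, adjusted p = 0.0464) and by 0.28 against *Klrk1* (interval 0.072 to 0.49, adjusted p = 0.0251). *Klrb1a* was lower than *Klrk1* and *Ncr1*, with differences of -0.10 and -0.11 (adjusted p = 0.0339 and 0.0251). *Klrb1a* and *Klrd1* were not told apart, at a difference of -0.029 with an interval from -0.10 to 0.045. The difference of *Klrd1* was -0.076 from *Klrk1* (interval -0.18 to 0.029, adjusted p = 0.172) and -0.081 from *Ncr1* (interval -0.17 to 0.0035, adjusted p = 0.0916), and both differences passed the threshold without rat 8, at -0.11 and -0.10 (adjusted p = 0.0234 and 0.0333). The interval of the difference between *Klrk1* and *Ncr1* ran from -0.059 to 0.049. The sizes of the differences between genes depend on how bright each probe is, since the offset compresses dim probes more.

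The plot of settings gives each gene under other processing. The direction of *Cd69*, *Klrb1a* and *Klrd1* was negative and that of *Klrc1* positive in all of the 27 or 28 alternatives with a value, whereas the sign of *Klrk1* and *Ncr1* changed.

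**Figure D3:**
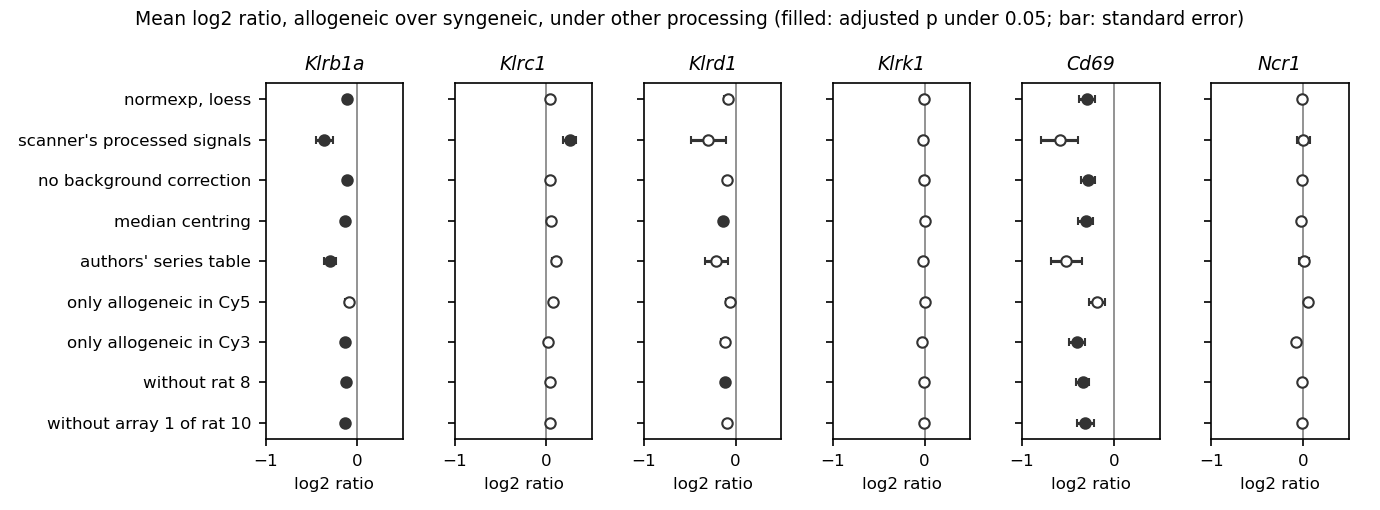
Mean log2 ratio, allogeneic over syngeneic, of each receptor gene under 9 processing settings, with the standard error as a bar and a filled point where the adjusted p was under 0.05. The processed signals, which carry no offset of 50, and the authors' series table, whose background treatment is not stated, gave larger values, such as -0.59 and -0.52 for *Cd69* and -0.36 and -0.30 for *Klrb1a*, than the main setting.

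Of the other lectin-like NK receptors of the NKC, 8 genes were measured and 0 were called by limma, beside 16.2% of all genes. Among these 8, *Klri2* alone had an unadjusted limma p under 0.05 (p = 0.0294). The ordinary linear model and the exact signed-rank test also called 0, and the arrays with the allogeneic RNA in Cy5 alone called 1. Their log2 ratios ran from -0.023 to 0.076 with a median of 0.038. *Klrg1*, an inhibitory receptor for cadherins, was at -0.023 ± 0.067 (SD, n = 12 rats here and below). The product of *Klre1* pairs with that of *Klri1* or *Klri2*, and these genes were at 0.042 ± 0.15, 0.044 ± 0.077 and 0.064 ± 0.089. *Klrc2* was at 0.027 ± 0.15, *Klrc3* at 0.076 ± 0.15 and *Klrh1* at 0.00073 ± 0.12. *Klri2*, *Klrc3* and *Klrh1* were well above background in either channel on 11, 10 and 5 arrays, fewer than 12 of 24.

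Of the adaptors and kinases that carry the signals of these receptors, 15 were measured, 9 were called lower in the samples labeled allogeneic (60.0%, beside 7.56% of all genes), 1 was called higher and 5 were not called. Their median log2 ratio was -0.26. *Vav1*, a guanine nucleotide exchange factor, fell by 0.85 on the log2 scale (adjusted p = 0.00122). *Lcp2*, the scaffold SLP-76, fell by 0.78 (adjusted p = 0.00128). *Tyrobp*, the adaptor DAP12, fell by 0.71 (adjusted p = 0.000235), and *Lck*, a Src-family kinase, fell by 0.70 (adjusted p = 0.00423). *Cd247*, the CD3 zeta chain (*Cd3z*), which also pairs with NKp46, was at -0.074 (adjusted p = 0.290). Myeloid cells and T cells use many of these genes as well.

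Of the known or possible ligands and partners of these receptors, 8 were measured. Of these, 1 was called lower, 2 were called higher and 5 were not called, with a median of 0.040. The share called was 37.5%, beside 16.2% of all genes. *RT-BM1*, a non-classical class I gene whose relatives in other species present peptides to CD94/NKG2A, fell by 0.51 (adjusted p = 0.00105). *Lgals1*, which encodes galectin-1, was higher by 0.45 (adjusted p = 0.00228), and *Mill1*, a class I-like gene, was higher by 0.16 (adjusted p = 0.0125). *Clec2d* (Ocil), a lectin-like gene of the family that NKR-P1 receptors bind, was at 0.17 (adjusted p = 0.273). *S1pr1*, the receptor that the CD69 protein retains, was at 0.063 (adjusted p = 0.200).

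Genes of NK cells and cytotoxic lymphocytes were called in 7 of 20 cases, 6 lower and 1 higher, with a median of -0.047. The share called was 35%, beside 16.2% of all genes. *Gzmc*, *Gzmb* and *Gzma*, which encode granzymes, were lower in the samples labeled allogeneic, at -1.34, -0.69 and -0.38 (adjusted p = 0.000444, 0.00312 and 0.0281). *Il2rb*, a receptor chain for IL-2 and IL-15, fell by 0.63 (adjusted p = 0.00116). *Gzmf* was at -0.15 (adjusted p = 0.0592). The list's summed level ran from 12.37 to 13.49 (log2 intensity) in the syngeneic samples and from 12.33 to 13.17 in the allogeneic samples, and it was lower in the allogeneic sample of 11 of 12 rats. Such a sum follows mainly the brightest genes of a list.

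Genes of early lymphocyte activation, the group to which *Cd69* belongs by function, were called lower in 5 and higher in 2 of 15 cases, with a median of -0.13. The share called was 46.7%, beside 16.2% of all genes. Of those called lower, *Il2* and *Cd40lg* were dim, well above background in either channel on 6 and 8 arrays. With the filter on dim probes, 5 genes of the list were called in place of 7. *Cd83* fell by 0.64 (adjusted p = 0.00608) and *Nr4a1* fell by 0.31 (adjusted p = 0.00286). The transcription factor genes *Egr1* and *Egr2* were higher, by 0.49 (adjusted p = 0.000169) and 0.34 (adjusted p = 0.0485). *Cd44* was at -0.14 (adjusted p = 0.149).

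T cells also carry *Cd69* and several of the lectin-like receptors, so their markers stand beside these results. Of 13 T cell markers, 5 were called lower and 0 higher (38.5% called, beside 16.2% of all genes), with a median of -0.26. *Cd5*, *Cd6*, *Cd8b* and *Cd8a* were lower, at -0.97, -0.63, -0.49 and -0.32 (adjusted p = 0.0115, 0.00631, 0.000318 and 0.00385), and *Cd3d* was at -0.16 (adjusted p = 0.328). Their summed level ran from 11.74 to 13.14 in the syngeneic samples and from 11.45 to 12.56 in the allogeneic samples, and it was lower in the allogeneic sample of 10 of 12 rats. *Trat1* and *Cd28* were well above background in either channel on no more than 3 arrays. The part of T cells in the ratios of *Cd69* and *Klrb1a* was not tested.

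Of 13 macrophage markers, 6 were called lower and 2 higher (61.5% called, beside 16.2% of all genes), with a median of -0.22. *Trem2*, *Aif1*, *Spi1* and *Itgam* were lower, at -1.69, -1.27, -0.67 and -0.60 (adjusted p = 0.000106, 0.000102, 0.000596 and 0.0026), and *Cd163* was at 0.18 (adjusted p = 0.264). Their summed level ran from 14.33 to 15.80 in the syngeneic samples and from 14.41 to 15.39 in the allogeneic samples. Of 6 B cell markers, 0 were called lower and 1 higher, *Fcer2* at 0.12 (adjusted p = 0.00312), a share of 16.7% beside 16.2% of all genes. The call of *Fcer2*, which has 2 probes, was lost with the brightest probe alone. Of 3 keratinocyte markers, *Perp* was called higher by 0.69 (adjusted p = 0.0333), and *Tp63* was at 0.30 (adjusted p = 0.358). The share called was 33.3%, beside 16.2% of all genes. The count of called keratinocyte markers fell to 0 with any 1 of rats 2, 5, 7, 9, 11 or 12 left out, and it was 2 without rat 10. Their summed level was lower in the allogeneic sample of 1 of 12 rats. Of 4 fibroblast markers, *Col1a2* and *Pdgfrb* were called higher, by 0.55 and 0.43 (adjusted p = 0.00433 and 0.000229), *Fn1* fell by 0.36 (adjusted p = 0.0352), and *Pdgfra* was at 0.41 (adjusted p = 0.0588). The share called was 75%, beside 16.2% of all genes. The part of the cell makeup of the explants in the receptor results was not tested.

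**Figure D4:**
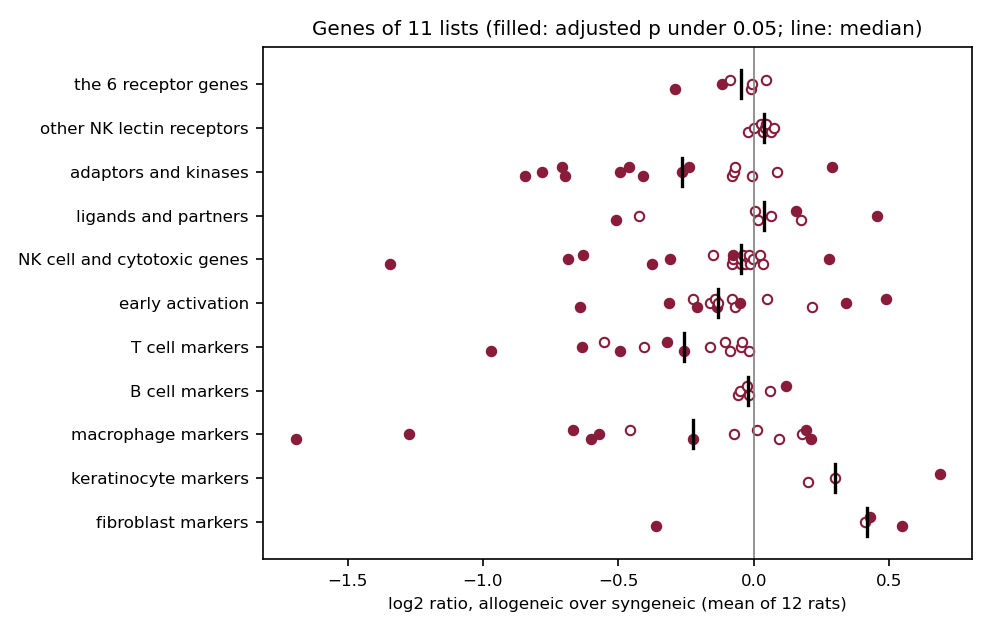
Mean log2 ratio of 12 rats, allogeneic over syngeneic, of each gene in 11 lists, with a filled point where the adjusted p was under 0.05 and a black line at the median of the list. The 8 other NK lectin receptors lie between -0.023 and 0.076, whereas the adaptors and kinases reach from -0.85 to 0.29.

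The genes whose 12 ratios were most like those of a member were sought among 6330 genes with a detected probe. The genes share arrays and samples, so these correlations are a description. For *Cd69* they were *Stat4* (Pearson r = 0.934, Spearman rho = 0.944), *Tnfrsf14* (r = 0.930, rho = 0.972) and *Ptpn22* (r = 0.919, rho = 0.923). Without rats 8 and 9, the farthest from the median of *Cd69*, r was 0.928, 0.843 and 0.901. *Stat4* encodes a transcription factor of IL-12 signaling, *Tnfrsf14* a receptor of the TNF receptor family and *Ptpn22* a lymphoid phosphatase. *Tnfrsf14* was called at -0.63 (adjusted p = 0.0161), while *Stat4* was at -0.18 (adjusted p = 0.249) and *Ptpn22* at -0.55 (adjusted p = 0.0827).

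For *Klrb1a* they were *Ly49i2* (r = 0.882, rho = 0.902), *Ly49s6* (r = 0.877, rho = 0.923) and the transcript XM_218590 (r = 0.873, rho = 0.853). The first and the second are Ly49 receptor genes of the same gene complex, and neither was called, at -0.011 and -0.0068, while XM_218590 was called in the other direction than *Klrb1a*, at 0.074 (adjusted p = 0.0123). Without rats 9 and 12, r was 0.877, 0.773 and 0.767. For *Klrd1* they were *Plxnc1* (r = 0.886, rho = 0.650), the Ly49 gene *Klra22* (r = 0.879, rho = 0.643) and *Ehf* (r = 0.850, rho = 0.713), and without rats 8 and 9 r was 0.703, 0.821 and 0.734. For *Klrc1*, *Klrk1* and *Ncr1*, which were not called, the highest were *Tnni3k* (r = 0.879), *Wwtr1* (r = 0.888) and the olfactory receptor gene *Or9q2* (r = 0.900), followed by *Slc4a10* and *Or7a38d*, by *Or13m2* and RGD1562149, and by XM_345051 and *Or5h17b*.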

How the data were processed

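RNA of 24 explants from 12 rats was compared on 24 two-color arrays, assigned to rats and dye orientations by the sample labels. Feature Extraction 9.5.1.1 gave the mean and local background intensities, deposited by the authors without normalization, and processed intensities, which the software had background-subtracted and dye-normalized before the authors deposited them. A deposited table of log2 ratios does not state its direction or background treatment, and its columns followed allogeneic over syngeneic (r = 0.703 to 0.957). The labels name a SMART amplification kit and the methods a linear one. Of the study's listed MHC and NKC probes, 11 were not found in the files, among them that of *Klrc1*, so the probe named *Klrc1* in the scanner files was used.

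With R 4.3.3 and limma 3.58.1, mean intensities were corrected by normexp (offset 50) and normalized by loess, control and outlier spots were left out, swapped arrays were turned, and spots, probes of a gene (8453 probes, 7249 genes) and both arrays of a rat were averaged. Levels per channel were also scaled between arrays (Aquantile). Genes were tested against 0 by limma with 12 rats, so that the comparison is within rats. The scripts were tested on simulated data. Alternatives covered background correction, normalization, dye orientation, dim probes, outlier spots, slide, test, series table and omission of each rat. The members and lists were chosen with earlier results of these data known. Named besides the members were the other NK lectin receptors, and from each further list up to 4 called genes with the largest change and the first listed gene not called; *S1pr1*, *Cdh1*, *Trat1* and *Cd28* were added after their values were seen, and some list genes are not reported here. The number of arrays limits the precision.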

Additional observations from a re-analysis of the deposited data

How the results depend on the processing

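The count of 2 called members became 0 with only the arrays that carry the allogeneic sample in Cy5, 0 with the sign of rat 5 turned (as an exchange of its samples would give), 1 with the ordinary linear model and 1 with the authors' series table, and it was 0 to 3 with each rat left out. *Cd69* lost its call with the processed signals (-0.59), the allogeneic sample in Cy5 only (-0.18), the ordinary linear model (-0.29), the series table (-0.52) and rat 5 turned (-0.23). *Klrb1a* lost it with the allogeneic sample in Cy5 only (-0.095) and rat 5 turned (-0.098). *Klrc1* gained a call with the processed signals (0.26), and *Klrd1* gained one with median centring (-0.13) and without rat 8 and array 1 of rat 10 (-0.12), an alternative chosen after the data were seen. *Klrk1* changed sign with median centring (0.0073) and the allogeneic sample in Cy5 only (0.0038), and *Ncr1* with the processed signals (0.0052), the allogeneic sample in Cy5 only (0.060) and the series table (0.012). The cause was not tested. When single rats were omitted, the ratios were -0.34 to -0.24 for *Cd69*, -0.13 to -0.098 for *Klrb1a*, -0.11 to -0.062 for *Klrd1*, 0.034 to 0.050 for *Klrc1*, -0.016 to -0.0021 for *Klrk1* and -0.014 to 0.0079 for *Ncr1*. Over all genes, 1174 calls became 2191 and 2071 with a single dye orientation, 1861 without rat 8 and array 1 of rat 10, and 0 with rat 5 turned, whose ratios otherwise had the highest median correlation with the other rats (0.654). Called genes of the lists rose from 7 to 11 (NK cell and cytotoxic) and from 5 to 8 (T cell) with the allogeneic sample in Cy3 only, and from 3 to 5 (ligands and partners) and from 1 to 2 (B cell) with it in Cy5 only. Those of keratinocytes fell from 1 to 0 with the former setting and with the ordinary linear model. All were 0 with rat 5 turned. Turning a rat that runs with the others widens the spread between rats, so calls tend to be lost in this setting whatever their strength. The filter on dim probes removed *Klrc1*, which then has no value.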
